A study of Rattus norvegicus with 24 samples.

Results

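The overnight salt response of the Dahl salt-sensitive rat (SS) was set against that of SS-13BN/Mcw, a consomic strain in which chromosome 13 of the SS rat is replaced by that of the Brown Norway rat. Each array carried kidney RNA of 2 rats of a strain, 1 from the side that the array titles call LS and 1 from the side they call HS, read here as low and high salt intake. The value of a rat pair was the mean of its 2 dye-swapped arrays, each centred on its median, and the quantity described was the SS pairs minus the SS-13BN/Mcw pairs. The comparison used 12 of the series' 24 arrays, that is 6 rat pairs, 3 of each strain, and 1053 of the 1766 measured probes, those with both dye orientations in at least 2 pairs of each strain. The spread behind the SEs and p-values was estimated over all 12 rat pairs of the series, those labelled 3 days included. All sources were labelled kidney and total RNA. The labels give neither the region of the kidney nor the salt content of the diets, and in SS-13BN/Mcw every gene of the replaced chromosome differs in origin at once. The overnight pairs joined rats 1 and 4, 2 and 5, and 3 and 6 of each strain. The arrays labelled 3 days joined rats 1, 2 and 3 with rats 7, 8 and 9, so both times shared the lower-numbered rats if the numbers name the same animals.

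The kidney reclaims most of the filtered salt, water, peptides and protein in the proximal tubule. The apical brush border of this segment carries peptidases, transporters and the endocytic receptor megalin, and its cells break down amino acids and oxidise fatty acids. The thick ascending limb and the collecting duct then set how much sodium is excreted, under control of the renin-angiotensin system and of corticosteroids. The SS rat raises its blood pressure on a high-salt diet and develops kidney injury, and the Brown Norway chromosome 13 lessens this. In RNA of whole tissue, fewer cells of a type and less RNA per cell cannot be told apart.

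The deposited log ratio has no stated numerator or base, so a value is given only as lying on the positive or negative side, and no fold change or direction with salt was derived. The overnight arrays held between 1110 and 1412 values each, and their number limits the precision. Swapped arrays of a pair were read without turning signs, since their values correlated across probes with r from 0.169 to 0.825 in 6 of 6 pairs once the mean of the other arrays of the same orientation was removed, and with r from -0.0217 to 0.749 before. Turning the arrays by dye was an alternative. It takes the difference of the swapped arrays in place of their mean, so a value that both arrays of a pair share cancels. The titles carry a number before the names of the rats, which no label explains. It was 18 to 23 for the SS overnight arrays and 24, 25, 26, 32, 33 and 43 for the SS-13BN/Mcw arrays, so whatever it counts and strain cannot be told apart. Of the lists of kidney cell types, 10 brush border genes, 6 of the thick ascending limb and distal tubule, 5 of the collecting duct and 4 of the glomerulus had measured probes. A log ratio carries no level, so these counts show that the probes gave values and not how abundant their RNA was.

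Overnight, the means of most probes lay on the same side of 0 in both strains. Among probes with both means negative and past 0.3 in size, those of SS-13BN/Mcw mostly lay farther from 0. Across the 1053 probes the group means had the same sign in 795 (75.5%), and the correlation of the means across probes, which are not independent replicates, was 0.771. Of the 80 probes with both means past 0.3 in size, 79 had the same sign. On the negative side 27 of 31 were farther from 0 in SS-13BN/Mcw, and on the positive side 28 of 48 were. No probe passed the test of the strain difference. limma called 0 of 1053 probes at an adjusted p under 0.05 (0%), and 53 probes (5.03%) had an unadjusted p under 0.05, where chance alone gives 52.65. Of those 53, SS was above in 39 (3.7%) and below in 14 (1.33%).

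The smallest adjusted p was 0.331, for a probe with no gene symbol in the annotation, probe 48. Its SS pairs stood at 0.38, -0.052 and 0.0085 and its SS-13BN/Mcw pairs at -0.41, -0.81 and -0.86, with a difference of 0.81 ± 0.16 (SE, n = 3 and 3). The next adjusted p was 0.898, and it was shared by the genes with the smallest p described here. An added fit on single arrays with the dye as a term, chosen after seeing the data, called this 1 probe (adjusted p 0.0273). Every other alternative called 0 probes, with 25 to 92 at an unadjusted p under 0.05. With limma fitted over the 6 overnight pairs alone, the smallest adjusted p was 0.902.

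These data bounded the strain difference more tightly for some genes than for others. The median SE was 0.134 and the median half-width of the 95% interval 0.294. The interval lay within 0.5 of 0 for 741 probes (70.4%) and within 1 of 0 for 1011 (96.0%). A difference past 0.5 in size was seen in 32 probes, with SS above in 28 and below in 4. Of the 28, 13 belonged to the proximal tubule lists, which made up 23 of the tested genes.

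**Figure D1:**
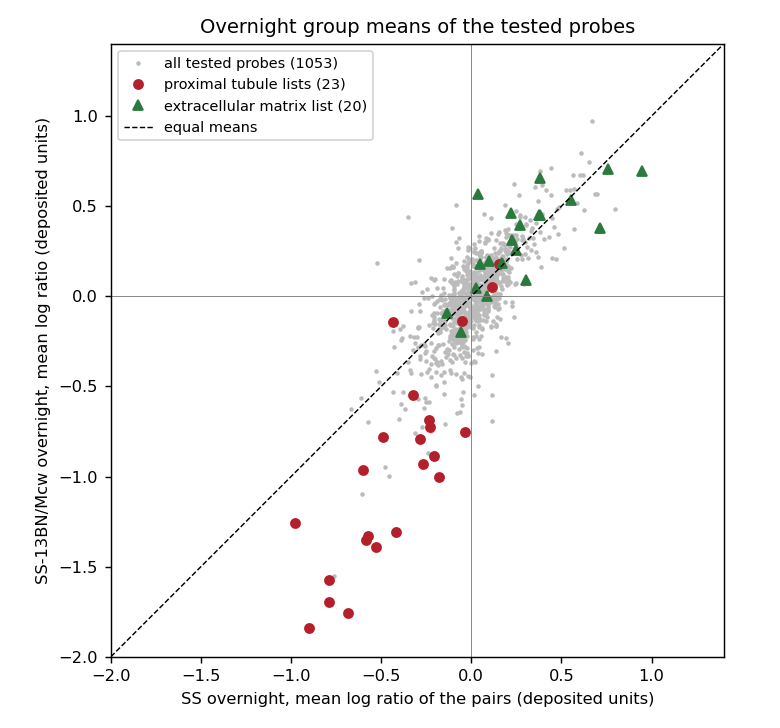
Mean overnight log ratio of the SS pairs (x axis) against that of the SS-13BN/Mcw pairs (y axis), in deposited units, for the 1053 tested probes, with the 23 genes of the proximal tubule lists and the 20 of the extracellular matrix list marked. Most proximal tubule genes are negative in both strains and lie under the dashed line of equal means, farther from 0 in SS-13BN/Mcw, while the matrix genes lie on both sides of the line.

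The brush border and endocytosis list showed the widest gap between the strains among the lists summarised. All 8 tested genes of the 10 measured had a higher mean in SS, and in 6 of 8 every SS pair lay above every SS-13BN/Mcw pair, against 7.69% of all tested probes. None of the 8 was called. This list, like the others, was chosen with earlier results of these data known. Its genes share the same rat pairs, so they are not independent replicates. The median difference was 0.72, against 0.0071 over all tested probes. The list's median in the SS pairs was -0.24, -0.34 and -0.25, and in the SS-13BN/Mcw pairs -0.52, -0.73 and -1.58. SS-13BN/Mcw pair 3 was the farthest from 0, and without it the median difference was 0.37, with 6 of 8 genes still not overlapping against 11.8% of the probes then tested. Quantile normalization gave a median of 0.38, and arrays turned by dye gave 0.00056.

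Slc15a2, the peptide transporter PEPT2 that reclaims filtered di- and tripeptides, had SS pairs at -0.084, -0.29 and -0.25 and SS-13BN/Mcw pairs at -0.47, -0.81 and -1.39. The SS values were close together near 0 and the SS-13BN/Mcw values were spread and all lower. The difference was 0.68 ± 0.22 (SE, n = 3 and 3, 95% interval 0.21 to 1.15, limma adjusted p 0.898). Dpp4 is a dipeptidyl peptidase that trims peptides such as incretins. Its SS pairs stood at -0.20, -0.23 and -0.25 and its SS-13BN/Mcw pairs at -0.44, -0.66 and -1.08. The SS pairs of Dpp4 agreed within 0.0234 (SD), against 0.324 in SS-13BN/Mcw, and the difference was 0.50 ± 0.16 (95% interval 0.15 to 0.85). Mme, the peptidase neprilysin that degrades natriuretic peptides, repeated this arrangement, with SS pairs at -0.21, -0.25 and -0.25 and SS-13BN/Mcw pairs at -0.40, -0.51 and -1.15. Its difference was 0.45 ± 0.18.

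Alpl, the alkaline phosphatase of the brush border, stood at -0.26, -0.38 and 0.11 in SS and at -0.57, -0.66 and -1.78 in SS-13BN/Mcw, a difference of 0.82 ± 0.33. Lrp2, the receptor megalin that takes up filtered protein, stood at -0.50, -0.54 and -0.68 in SS and at -0.73, -1.18 and -2.08 in SS-13BN/Mcw, a difference of 0.76 ± 0.34. Lrp2 was thus negative in all 6 pairs, and its highest SS-13BN/Mcw pair lay just under its lowest SS pair. Ggt1, which splits glutathione outside the cell, stood at -0.51, -0.85 and -0.39 in SS and at -0.93, -0.95 and -2.17 in SS-13BN/Mcw, a difference of 0.76 ± 0.35. For both Alpl and Ggt1 the pair at the far negative end was SS-13BN/Mcw pair 3. Without that pair the differences were 0.43 for Slc15a2, 0.32 for Dpp4, 0.22 for Mme, 0.43 for Alpl, 0.38 for Lrp2 and 0.35 for Ggt1, all on the same side and each smaller by over 1.5 times.

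Anpep, aminopeptidase N, had the most negative mean of the list in both strains. Its SS pairs stood at -0.83, -1.44 and -0.43 and its SS-13BN/Mcw pairs at -1.05, -1.89 and -2.57. The groups overlapped through SS pair 2, and the difference was 0.94 ± 0.45 (95% interval -0.045 to 1.92), or 0.57 without SS-13BN/Mcw pair 3. Aqp1, the water channel of the proximal tubule and thin descending limb, did not share the pattern. Its means were 0.11 ± 0.036 (SD) in SS and 0.054 ± 0.090 in SS-13BN/Mcw, with a difference of 0.059 ± 0.092 (95% interval -0.14 to 0.26).

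The proximal tubule metabolism list was arranged in the same way. Of 15 tested genes of 20 measured, 13 had the higher mean in SS, 6 did not overlap with SS above (40%, against 7.69% of all tested probes), and the median difference was 0.51. Medians per pair were -0.47, -0.37 and -0.44 in SS and -0.66, -1.01 and -1.39 in SS-13BN/Mcw. The genes without a value in every pair make this median depend on which pair is left out. It was 0.30 over 11 genes without SS-13BN/Mcw pair 3, 1.12 over 8 genes without pair 1 and 0.78 over 10 genes without pair 2. It was 0.29 after quantile normalization and 0.036 with arrays turned by dye.

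Akr7a3, an aldehyde reductase of detoxification, had SS pairs at -0.40, -0.39 and -0.47 and SS-13BN/Mcw pairs at -0.56, -1.19 and -2.16. Its SS pairs nearly coincided while the SS-13BN/Mcw pairs covered a wide range, and the difference was 0.89 ± 0.31 (95% interval 0.22 to 1.56), or 0.46 without SS-13BN/Mcw pair 3. Fah, the last enzyme of tyrosine breakdown, stood at -0.090, -0.26 and -0.45 in SS and at -0.61 and -1.25 in the 2 SS-13BN/Mcw pairs with a value, a difference of 0.66 ± 0.22. Hpd, an earlier enzyme of the same route, was tighter in both strains, at -0.63, -0.37 and -0.46 in SS and at -0.71, -0.87 and -0.77 in SS-13BN/Mcw, a difference of 0.30 ± 0.13. In Hpd, SS-13BN/Mcw pair 3 did not lie farther out than the other pairs, and the groups did not overlap.

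Aadat, an aminotransferase of lysine and kynurenine breakdown, stood at -0.94, -0.999 and -0.43 in SS and at -1.10, -1.44 and -2.55 in SS-13BN/Mcw, a difference of 0.91 ± 0.37. Agxt2, which degrades the nitric oxide synthase inhibitor asymmetric dimethylarginine, stood at -0.80, -0.62 and -0.16 in SS and at -0.81, -1.34 and -2.03 in SS-13BN/Mcw, a difference of 0.87 ± 0.36. In Agxt2 pair 1 was nearly the same in both strains, and the groups were separated by a margin smaller than its SE. Acsm2, a medium-chain acyl-CoA synthetase, had the largest difference of all tested probes, 1.07 ± 0.46 (95% interval 0.076 to 2.06), from SS pairs at -0.73, -1.17 and -0.16 and SS-13BN/Mcw pairs at -1.05, -1.51 and -2.70. Its groups overlapped because SS pair 2 lay under SS-13BN/Mcw pair 1. Hao2, a peroxisomal hydroxyacid oxidase, had means of -0.79 ± 0.29 and -1.58 ± 0.89 (SD) and a difference of 0.79 ± 0.36. Without SS-13BN/Mcw pair 3 the differences were 0.48 for Aadat, 0.55 for Agxt2, 0.60 for Acsm2 and 0.28 for Hao2. Of the 18 reported genes of both proximal tubule lists with enough values left, 14 had a difference smaller by over 1.5 times without that pair.

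Ass1, which makes argininosuccinate for arginine synthesis, stood at 0.20, -0.23 and -0.072 in SS and at -0.14 and -1.37 in 2 SS-13BN/Mcw pairs, a difference of 0.72 ± 0.33. Sord, sorbitol dehydrogenase, stood at -0.32, -0.089 and -0.44 in SS and at -0.41, -0.58 and -1.39 in SS-13BN/Mcw, a difference of 0.51 ± 0.24, or 0.21 without SS-13BN/Mcw pair 3. The groups of both genes overlapped. Kap, the androgen-regulated protein of proximal tubule cells, had the most negative SS mean of both proximal tubule lists, with pairs at -0.51, -1.77 and -0.67, and stood at -1.07 and -1.45 in the 2 SS-13BN/Mcw pairs with a value. The SS pairs of Kap enclosed the SS-13BN/Mcw pairs, and the difference was 0.28 ± 0.37 (95% interval -0.54 to 1.09), or 0.040, 0.67 and 0.12 without SS pairs 1, 2 and 3. Fbp1, an enzyme of glucose synthesis, was positive in both strains, with means of 0.15 and 0.18. Cyp2e1, a cytochrome P450 of ethanol and ketone oxidation, was on the other side, with SS lower by a difference of -0.29 ± 0.29.

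**Figure D2:**
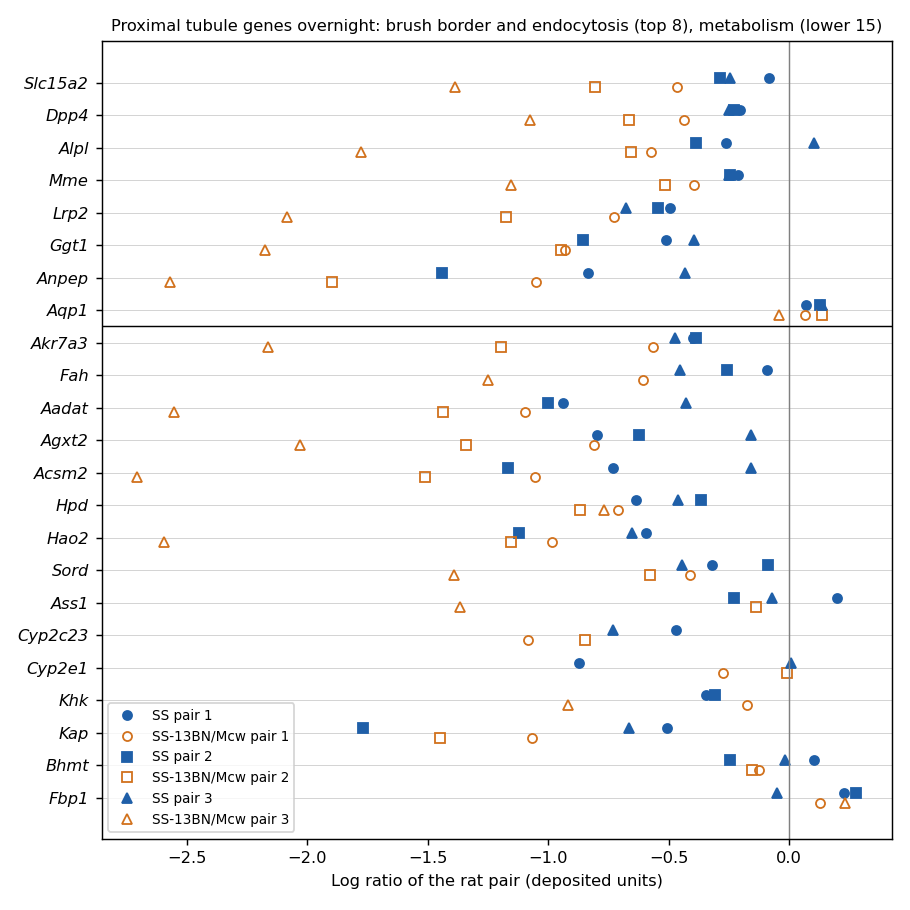
Overnight log ratio of each rat pair (x axis, deposited units) for the 8 tested brush border and endocytosis genes and the 15 tested metabolism genes, with SS pairs filled and SS-13BN/Mcw pairs open and the shape giving the pair number. The open symbols reach farther to the negative side, most of all in SS-13BN/Mcw pair 3, while Aqp1, Bhmt and Fbp1 lie near 0 in both strains.

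The promoters of these genes are shown because the members lay to the same side together. RefSeq promoters (build GRCr8, 250 bases before the annotated start) were matched for 23 of 23 tested proximal tubule genes. They were searched on both strands for GTTAAT, the half-site of HNF1, and for CAAAGTCCA, a motif of the HNF4 type. Both factors are known for proximal tubule genes. The 2 motifs do not overlap each other in these windows. GTTAAT was found in 4 (17.4%), namely Anpep, Akr7a3, Kap and Hpd, against 6.46% of 27457 promoters of the same length. CAAAGTCCA was found in 1 (4.35%), Agxt2, against 0.331%. Anpep lies at chr1:143195102-143195351 on the minus strand, Akr7a3 at chr5:156876471-156876720 on the plus strand and Agxt2 at chr2:61063166-61063415 on the plus strand. The sequences run 5′ to 3′ on the gene's strand with the matched motif in capitals, and a match describes letters and not binding.
Anpep: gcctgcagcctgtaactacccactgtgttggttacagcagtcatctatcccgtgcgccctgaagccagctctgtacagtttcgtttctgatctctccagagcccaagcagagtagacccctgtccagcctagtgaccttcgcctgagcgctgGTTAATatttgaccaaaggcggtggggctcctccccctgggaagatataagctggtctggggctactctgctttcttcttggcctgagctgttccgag
Akr7a3: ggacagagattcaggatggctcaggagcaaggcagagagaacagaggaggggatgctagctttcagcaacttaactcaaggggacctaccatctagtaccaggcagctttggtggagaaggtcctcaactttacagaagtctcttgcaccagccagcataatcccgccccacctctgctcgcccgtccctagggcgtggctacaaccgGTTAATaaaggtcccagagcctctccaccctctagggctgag
Agxt2: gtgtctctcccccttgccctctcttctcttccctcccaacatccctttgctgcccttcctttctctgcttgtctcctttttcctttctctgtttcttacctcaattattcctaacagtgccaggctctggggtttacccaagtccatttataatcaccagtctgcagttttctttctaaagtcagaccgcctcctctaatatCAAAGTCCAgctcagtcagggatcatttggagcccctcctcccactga
The first base of the motif lies 98 bases before the start in Anpep, 42 in Akr7a3 and 48 in Agxt2. Differences for these genes ranged over 0.94, 0.89 and 0.87, while Hpd and Kap, which also hold GTTAAT, were at 0.30 and 0.28. Neither motif was found in Acsm2 (1.07), Aadat (0.91), Alpl (0.82), Hao2 (0.79) and Lrp2 (0.76). Aqp1 (0.059) and Fbp1 (-0.028) held neither as well. Whether the motifs go with the size of the difference was not tested.

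Lists of metabolic pathways hold some of the same genes, so they are given with and without the members of the proximal tubule lists, and none of their genes was called. Of 17 tested genes of oxidative stress and glutathione, 15 had the higher mean in SS, 4 did not overlap with SS above (23.5%, against 7.69% of all tested probes), and the median difference was 0.22. It was 0.35 without SS pair 2, 0.13 without SS pair 3 and -0.058 with arrays turned by dye. Of the 16 genes other than Ggt1, 14 had the higher mean in SS, with a median of 0.21. Gss, which makes glutathione, stood at -0.046, -0.15 and 0.056 in SS and at -0.25, -0.29 and -1.05 in SS-13BN/Mcw, a difference of 0.48 ± 0.19, or 0.22 without SS-13BN/Mcw pair 3. Gpx4, the peroxidase of lipid peroxides, stood at 0.13, -0.30 and -0.088 in SS and at -0.25, -0.49 and -0.56 in SS-13BN/Mcw, a difference of 0.34 ± 0.14, and its groups overlapped. Gsta2, a glutathione transferase, was among the most negative genes in both strains, with means of -0.76 ± 0.24 and -1.55 ± 0.85 (SD) and a difference of 0.79 ± 0.36, or 0.30 without SS-13BN/Mcw pair 3.

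Among 17 genes of amino acid breakdown and gluconeogenesis, 14 had the higher mean in SS, and the median difference was 0.17. With SS above 5 did not overlap (29.4%, against 7.69% of all tested probes), and with SS below 1 (5.88%, against 3.23%). The median difference was 0.30 without SS-13BN/Mcw pair 1, 0.065 without SS-13BN/Mcw pair 3 and -0.048 with arrays turned by dye. The proximal tubule lists share 6 of these genes and 4 of the 5 without overlap. Of the 11 others 9 had the higher mean in SS, with a median of 0.13. Oat, ornithine aminotransferase, stood at -0.20, -0.073 and -0.15 in SS and at -0.23, -0.58 and -1.32 in SS-13BN/Mcw, a difference of 0.57 ± 0.21, or 0.26 without SS-13BN/Mcw pair 3. Oat did not overlap, though pair 1 of both strains differed little. Arg2, the mitochondrial arginase, was one of the 3 members with SS lower, with means of -0.04 and 0.19.

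Of 22 genes of fatty acid oxidation and ketone bodies, 16 had the higher mean in SS, 4 did not overlap with SS above (18.2%, against 7.69% of all tested probes) and 1 with SS below (4.55%, against 3.23%), and the median difference was 0.10. It was 0.028 without SS-13BN/Mcw pair 3, 0.023 with arrays turned by dye and 0.10 over the 21 genes other than Acsm2. Acads, the short-chain acyl-CoA dehydrogenase, stood at -0.077, -0.014 and -0.097 in SS and at -0.28, -0.55 and -1.09 in SS-13BN/Mcw, so SS was near 0 while SS-13BN/Mcw was negative in all 3 pairs. The difference was 0.58 ± 0.18 (95% interval 0.19 to 0.97), or 0.35 without SS-13BN/Mcw pair 3. Echs1, the mitochondrial enoyl-CoA hydratase, stood at -0.065, -0.39 and -0.0040 in SS and at -0.37, -0.65 and -0.60 in SS-13BN/Mcw, a difference of 0.39 ± 0.15 in which SS pair 2 overlapped. Acaa1a, the peroxisomal thiolase, ran the other way. It was negative in every SS pair (-0.11, -0.12 and -0.081) and positive in every SS-13BN/Mcw pair (0.32, 0.039 and 0.15), a difference of -0.27 ± 0.13.

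The respiratory chain and citrate cycle list had 17 of 22 tested genes higher in SS with a median of 0.088. It was -0.027 without SS-13BN/Mcw pair 3, 0.051 without SS pair 2 and 0.17 and 0.14 without SS-13BN/Mcw pairs 1 and 2. Cycs, cytochrome c, had its largest difference. The SS pairs of Cycs were all positive, at 0.16, 0.0062 and 0.17, and the SS-13BN/Mcw pairs all negative, at -0.28, -0.37 and -0.99, a difference of 0.66 ± 0.20 (95% interval 0.22 to 1.11). The cholesterol and fatty acid synthesis list had 9 of 11 genes higher in SS and a median of 0.045, which lay between 0.031 and 0.094 with a pair left out and was -0.052 with arrays turned by dye. Dhcr7, the last enzyme of cholesterol synthesis, had its largest difference, 0.55 ± 0.26 (0.29 without SS-13BN/Mcw pair 3), from SS pairs at 0.20, 0.16 and -0.018 and SS-13BN/Mcw pairs at 0.10, -0.45 and -0.96. Glycolysis (10 genes) had a median of -0.022, cytosolic ribosome and translation (36 genes) 0.0022 and protein folding and proteasome (20 genes) 0.026, and with a pair left out the medians of these 3 lists lay between -0.069 and 0.082, on both sides of 0.

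**Figure D3:**
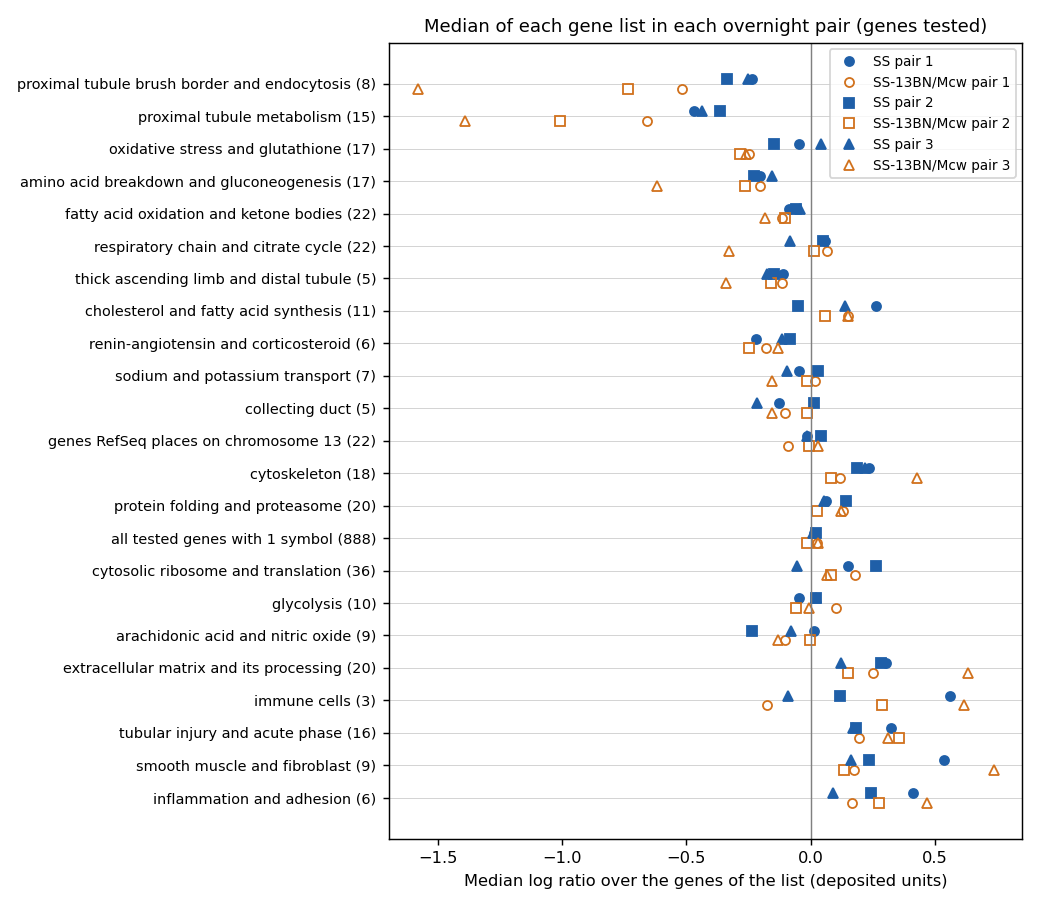
Median overnight log ratio of each gene list in each rat pair (x axis, deposited units), with the number of tested genes in brackets, SS pairs filled and SS-13BN/Mcw pairs open. In the 2 proximal tubule lists at the top all SS pairs lie to the right of all SS-13BN/Mcw pairs. The same holds, with smaller median differences, in the oxidative stress and glutathione list and the fatty acid oxidation list. In the matrix, immune, smooth muscle and inflammation lists SS-13BN/Mcw pair 3 lies farthest to the positive side.

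Ranked by p among genes whose pairs did not overlap, Cycs, Acads, Slc15a2, Dpp4, Akr7a3 and Fah, described with their lists, were among the first 10 with SS above. Pros1, protein S of the anticoagulant protein C pathway, came first. Its SS pairs stood at -0.030, -0.036 and 0.019 and its SS-13BN/Mcw pairs at -0.33, -0.40 and -0.60, so SS was at 0 and SS-13BN/Mcw negative, with a difference of 0.43 ± 0.12 (95% interval 0.18 to 0.68). Myl2, a regulatory myosin light chain, had 2 pairs per strain with a value, at 0.12 and 0.28 in SS and -0.24 and -0.28 in SS-13BN/Mcw, a difference of 0.46 ± 0.13. Prep, a prolyl endopeptidase of the cytosol, stood at 0.11, 0.067 and -0.13 in SS and at -0.14, -0.50 and -1.01 in SS-13BN/Mcw, a difference of 0.57 ± 0.18, or 0.33 without SS-13BN/Mcw pair 3. The lowest SS pair and the highest SS-13BN/Mcw pair of Prep nearly met. Mif, macrophage migration inhibitory factor, stood at 0.19, 0.20 and 0.12 in SS and at 0.095, -0.24 and -0.53 in SS-13BN/Mcw, a difference of 0.39 ± 0.13, or 0.24 without SS-13BN/Mcw pair 3. All of these had a limma adjusted p of 0.898.

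Genes with SS below were fewer. In 34 probes (3.23%) every SS pair lay under every SS-13BN/Mcw pair, and 0 of them belonged to the proximal tubule lists. In 22 of the 34 the mean was negative in SS and positive in SS-13BN/Mcw, while in 50 of the 81 probes with SS above both means were negative. Foxq1, a forkhead transcription factor, had the smallest p. Its SS pairs stood at -0.66, -0.72 and -0.20 and its SS-13BN/Mcw pairs at 0.37, -0.13 and 0.32, so SS was negative in every pair and SS-13BN/Mcw positive in 2 of 3. The difference was -0.71 ± 0.18 (95% interval -1.10 to -0.32, limma adjusted p 0.898).

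Sfrp4, a secreted inhibitor of Wnt signalling, stood at -0.66, -0.057 and -0.21 in SS and at 0.039, 0.011 and 0.19 in SS-13BN/Mcw, a difference of -0.39 ± 0.15 that was -0.22 without SS pair 1. Akap9, a scaffold that holds protein kinase A at the Golgi and centrosome, stood at -0.21, -0.41 and -0.19 in SS and at -0.023, -0.052 and 0.14 in SS-13BN/Mcw, a difference of -0.29 ± 0.11. Both genes were negative in every SS pair. Ppp1r15a, which brings a phosphatase to the translation factor eIF2 after stress, stood at -0.082, -0.32 and 0.075 in SS and at 0.17, 0.84 and 0.13 in SS-13BN/Mcw. SS-13BN/Mcw pair 2 was far above the other pairs of Ppp1r15a, and the difference was -0.49 ± 0.21, or -0.26 without it.

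Among the first 10 genes with SS below were 2 G protein subunits. Gng7, a gamma subunit, stood at -0.089, -0.14 and -0.12 in SS and at 0.12, 0.16 and -0.012 in SS-13BN/Mcw, a difference of -0.20 ± 0.091. Gna15, an alpha subunit of the Gq class, stood at 0.020, -0.11 and -0.24 in SS and at 0.036 and 0.39 in 2 SS-13BN/Mcw pairs, a difference of -0.32 ± 0.15. Safb, a nuclear scaffold protein that binds DNA and RNA, had a difference of -0.21 ± 0.093, and Nup54, a nuclear pore protein, one of -0.20 ± 0.094. The 3 SS-13BN/Mcw pairs of Nup54 lay within 0.0137 (SD) of each other at a mean of 0.24. Cops8, a subunit of the COP9 signalosome, had a difference of -0.30 ± 0.14.

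**Figure D4:**
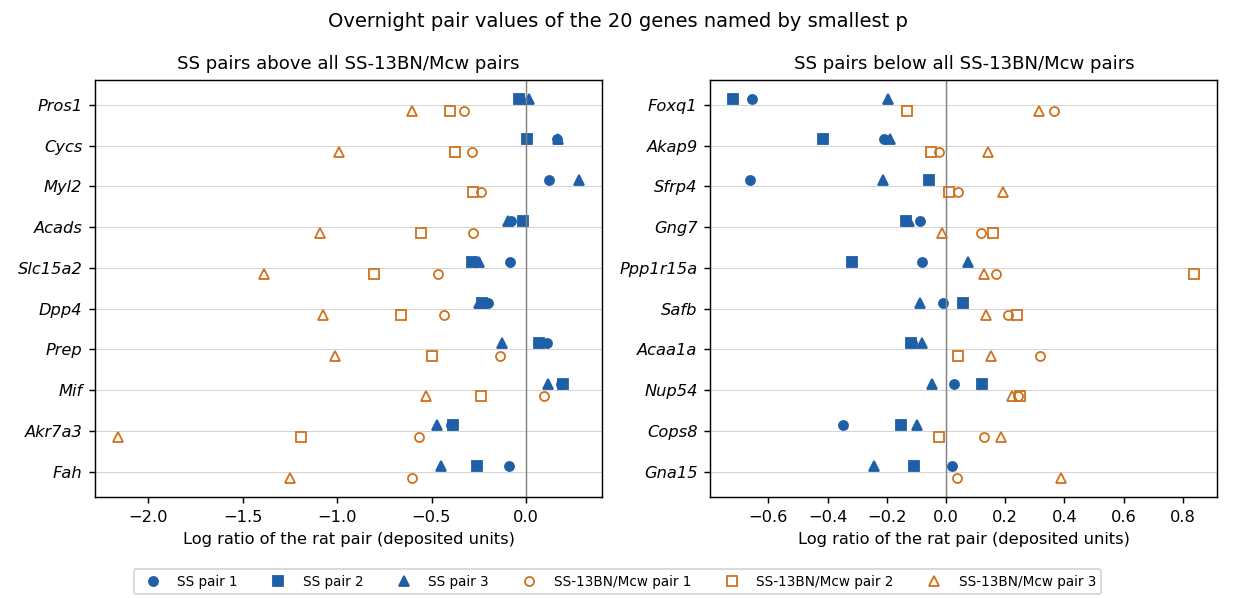
Overnight log ratio of each rat pair (x axis, deposited units) for the 10 genes per direction with the smallest p among those whose pairs did not overlap, with SS pairs filled and SS-13BN/Mcw pairs open. In the left panel SS lies between -0.47 and 0.28 and SS-13BN/Mcw reaches to -2.16, and in the right panel the values span a smaller range around 0.

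The sign itself was opposite in every measured pair of the 2 strains for 14 probes (1.33%), 8 with SS positive and 6 with SS negative. Those with a symbol and SS positive were Cycs, Myl2, Tf, Stmn1 and Gata6. Tf, transferrin, stood at 0.050, 0.17 and 0.20 in SS and at -0.046, -0.19 and -0.11 in SS-13BN/Mcw, a difference of 0.26 ± 0.10. Stmn1, the microtubule-destabilising protein stathmin, stood at 0.17, 0.050 and 0.36 in SS and at -0.010, -0.10 and -0.58 in SS-13BN/Mcw, a difference of 0.43 ± 0.20, or 0.25 without SS-13BN/Mcw pair 3. Gata6, a transcription factor, had a difference of 0.17 ± 0.14. Those with SS negative were Sfrp4, Acaa1a, Scaf1 and Rab26. Signs count from the median of each array, and some values lay near it. SS pair 2 of Cycs stood at 0.0062 and SS-13BN/Mcw pair 1 of Gata6 at -0.0097. Myl2 and Rab26 had a value in 2 pairs per strain.

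Genes of sodium transport and its hormones were named for their role, except Ptger1, which had a small p in its list. Agt, angiotensinogen, which proximal tubule cells make, stood at -0.39, -0.30 and -0.13 in SS and at -0.24, -0.51 and -1.42 in SS-13BN/Mcw. Its strains overlapped, and the difference was 0.45 ± 0.27 (95% interval -0.15 to 1.05, limma adjusted p 0.940), or 0.10 without SS-13BN/Mcw pair 3. Hsd11b2, which inactivates corticosterone in the collecting duct, stood at -0.073, -0.012 and -0.28 in SS and at -0.13, -0.32 and -0.24 in SS-13BN/Mcw, a difference of 0.11 ± 0.13. Hsd11b1, which regenerates corticosterone, stood at 0.16, -0.020 and -0.099 in SS and at 0.085, -0.24 and -0.33 in SS-13BN/Mcw, a difference of 0.17 ± 0.23 (95% interval -0.32 to 0.67). Nr3c2, the mineralocorticoid receptor, had means of -0.21 ± 0.24 and -0.18 ± 0.13 (SD) and a difference of -0.036 ± 0.15, which changed sign when either SS pair 1 (0.098) or SS-13BN/Mcw pair 3 (0.041) was left out.

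The transporters were narrower. Slc12a1, the sodium-potassium-chloride cotransporter of the thick ascending limb, was negative in all 6 pairs, at -0.28, -0.39 and -0.17 in SS and -0.27, -0.42 and -0.31 in SS-13BN/Mcw. Its difference was 0.049 ± 0.11 (95% interval -0.20 to 0.30), and scaling the arrays to a common spread gave -0.017. Scnn1a, the alpha subunit of the epithelial sodium channel, had a difference of 0.035 ± 0.088 (95% interval -0.16 to 0.23). Atp1b1, the beta subunit of the sodium pump, was positive in all 6 pairs, with means of 0.19 ± 0.077 and 0.20 ± 0.19 (SD) and a difference of -0.0070 ± 0.13. Differences of 0.5 in either direction lay outside the 95% intervals of Slc12a1, Scnn1a and Atp1b1. Cyp2c23, the arachidonic acid epoxygenase of the rat kidney, had 2 pairs per strain, at -0.47 and -0.73 in SS and -1.08 and -0.85 in SS-13BN/Mcw, a difference of 0.36 ± 0.30. Ptger1, a prostaglandin E2 receptor, stood at -0.46, -0.46 and -0.088 in SS and at -0.094, -0.0039 and -0.15 in SS-13BN/Mcw, a difference of -0.25 ± 0.13. Renin, angiotensin-converting enzyme, Slc12a3, Cyp4a2, Nos1 and Nos3 did not meet the rule for tested probes.

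**Figure D5:**
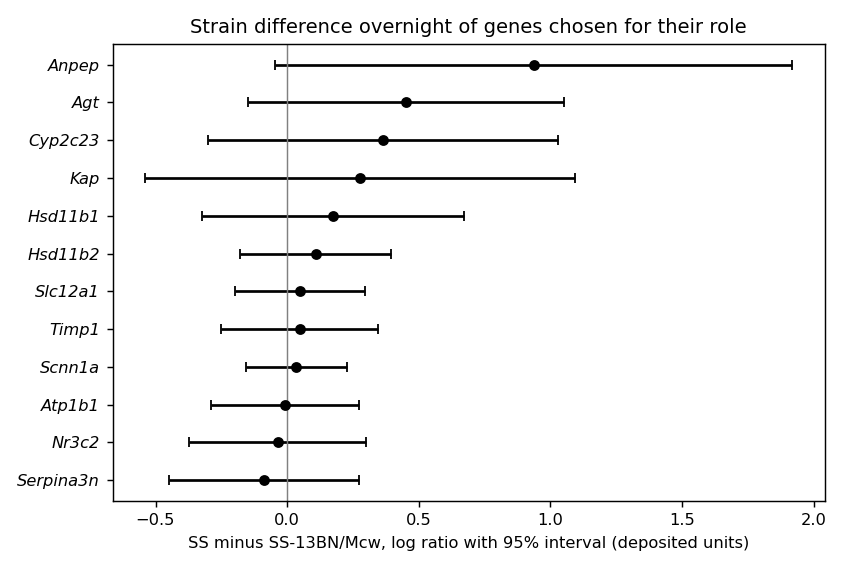
Overnight strain difference, SS minus SS-13BN/Mcw (x axis, deposited units), of 12 genes chosen for their role, with the 95% interval of limma as bars. All intervals include 0, and those of Slc12a1, Scnn1a, Timp1 and Atp1b1 are narrower than those of Anpep, Kap and Cyp2c23.

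The extracellular matrix was on the positive side in both strains, without the gap seen in the proximal tubule lists. Of 20 tested genes 18 had a positive mean in SS and 18 in SS-13BN/Mcw, 7 were higher in SS and 13 lower, and the median difference was -0.030. Its sign depended on the pairs, from -0.083 without SS-13BN/Mcw pair 2 to 0.043 without SS-13BN/Mcw pair 3, and it was 0.059 with pair quality weights. Timp1, the inhibitor of matrix metalloproteinases, was among the most positive, at 0.94, 0.63 and 0.70 in SS and 0.61, 0.55 and 0.97 in SS-13BN/Mcw. Its difference was 0.048 ± 0.13 (95% interval -0.25 to 0.35), and it was -0.046 without SS pair 1, -0.0041 without SS-13BN/Mcw pair 1 and -0.032 without SS-13BN/Mcw pair 2. Nid1, a basement membrane linker, was above without overlap, at 0.36, 0.29 and 0.27 in SS and 0.25, 0.055 and -0.029 in SS-13BN/Mcw, a difference of 0.21 ± 0.12. Plat, tissue plasminogen activator, had the lowest difference of the list, -0.53 ± 0.32, or -0.19 without SS-13BN/Mcw pair 3. SS-13BN/Mcw pair 3 stood at 1.26 for Plat and the other pairs of both strains between -0.24 and 0.29. Mmp2, a gelatinase, stood at 0.20, 0.20 and 0.27 in SS and at 0.27 and 0.65 in 2 SS-13BN/Mcw pairs, a difference of -0.24 ± 0.14.

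Tubular injury and acute phase genes were likewise positive in both strains, with medians of 0.21 in SS and 0.30 in SS-13BN/Mcw and a median difference of -0.060 over 16 genes. It ran from -0.091 without SS-13BN/Mcw pair 1 to 0.028 without SS-13BN/Mcw pair 3, and was 0.013 with pair quality weights. Serpina3n, an acute phase protease inhibitor, stood at 0.91, 0.53 and 0.52 in SS and at 0.49, 0.66 and 1.08 in SS-13BN/Mcw, a difference of -0.088 ± 0.17 (95% interval -0.45 to 0.27) that became 0.082 without SS-13BN/Mcw pair 3. Mt2A, metallothionein 2, had a difference of 0.20 ± 0.13. Egr1, an immediate early transcription factor, had the lowest difference of all tested probes, -0.79, with the largest SE, 0.593. Its pairs stood at -0.060, -0.99 and -0.011 in SS and at 0.12, 1.87 and -0.67 in SS-13BN/Mcw. Pair 2 gave the lowest SS and the highest SS-13BN/Mcw value of Egr1, and the difference was -0.077 without SS-13BN/Mcw pair 2, -1.35 without SS-13BN/Mcw pair 3 and -0.48 without SS pair 2. S100a11, a calcium-binding protein, had a difference of -0.14 ± 0.10. The inflammation and adhesion list had 6 tested genes, 5 of them lower in SS, with a median of -0.091 that ran from -0.15 without SS-13BN/Mcw pair 1 to 0.027 without SS-13BN/Mcw pair 3 and was 0.090 with pair quality weights.

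Other cell types were represented by few probes. The thick ascending limb and distal tubule list had 5 tested genes, all negative in both strains, with a median difference of 0.046. The collecting duct list had 5 with a median of 0.035, and the smooth muscle and fibroblast list 9 with a median of -0.071. Leaving out SS-13BN/Mcw pair 3 turned these medians to -0.054, -0.042 and 0.21, and other pairs left out also turned each of them. The immune list had 3 tested genes, S100a8, RT1-Ba and RT1-Db1, with differences of 0.17, -0.08 and -0.04. Immune pair medians ran from -0.092 to 0.56 in SS and from -0.18 to 0.62 in SS-13BN/Mcw, so the spread within a strain was wider than the gap between them. Glomerular, endothelial and red cell lists had 2 tested genes each, and Vegfa, Thy1, Kdr, Vcam1, Hba-a1 and Hbb all had differences between -0.22 and 0.07. The part of these cell types in the proximal tubule values was not tested.

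Genes that RefSeq places on chromosome 13, which comes from different strains in the 2 groups, did not stand out by overlap or median difference. Of 40 measured genes 22 were tested, 12 with SS above and 10 below. With SS above 2 did not overlap (9.09%, against 7.69% of all probes). The median difference was 0.034, between -0.032 without SS-13BN/Mcw pair 1 and 0.091 without SS-13BN/Mcw pair 3. An unadjusted limma p under 0.05 was seen in 3 of 22, against 5.03% of all tested probes. These were Glul, Capn2 and Fmo1, all with SS above, and none was called. Glul, glutamine synthetase, stood at -0.18, 0.058 and -0.12 in SS and at -0.23, -0.49 and -1.21 in SS-13BN/Mcw, a difference of 0.56 ± 0.21, or 0.28 without SS-13BN/Mcw pair 3. Fmo1, a flavin monooxygenase of drug metabolism, stood at -0.40 and -0.18 in 2 SS pairs and at -0.77 and -0.83 in 2 SS-13BN/Mcw pairs, a difference of 0.51 ± 0.21. Capn2, the large subunit of m-calpain, had a difference of 0.38 ± 0.16, or 0.20 without SS-13BN/Mcw pair 3, and overlapped. Hsd11b1 and Atp1b1 are also on this chromosome and have been described.

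The whole spread of the log ratios differed between pairs. Over the 898 probes with a value in all 6 pairs, the SD over probes was 0.301, 0.250 and 0.185 in the SS pairs and 0.241, 0.297 and 0.480 in the SS-13BN/Mcw pairs. The mean difference was -0.0941, and an exact two-sided permutation test gave p = 0.5, where 3 pairs against 3 cannot go below 0.1. SS-13BN/Mcw pair 3 had the widest spread. The brush border medians of pairs 1, 2 and 3 were -0.24, -0.34 and -0.25 in SS and -0.52, -0.73 and -1.58 in SS-13BN/Mcw. The median difference was 0.72 for the brush border list and 0.51 for the metabolism list. Scaling the arrays to a common spread gave 0.58 and 0.48, and quantile normalization gave 0.38 and 0.29. The part of the spread in these differences was not tested. Pairs of SS-13BN/Mcw resembled each other across probes with r from 0.623 to 0.677, pairs of SS with r from 0.203 to 0.566, and pairs of different strains with r from 0.279 to 0.743.

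Whether the strain difference differed from that of the 3-day arrays was tested on 822 probes. limma called 0 (0%), with 20 (2.43%) at an unadjusted p under 0.05 and a smallest adjusted p of 0.972, so no difference described here can be called particular to overnight. The 2 strain differences may share rats, and their values are set side by side. Anpep differed by 0.94 ± 0.45 overnight and 1.01 ± 0.45 at 3 days. Slc15a2 differed by 0.68 ± 0.22 and 0.55 ± 0.22, and Akr7a3 by 0.89 ± 0.31 and 0.75 ± 0.31. Prep differed by 0.57 ± 0.18 and 0.59 ± 0.18, a contrast between the times of -0.022 ± 0.26. Foxq1 differed by -0.71 ± 0.18 overnight and by -0.16 ± 0.21 at 3 days, and Hpd by 0.30 ± 0.13 and -0.17 ± 0.13. The change between the times was -0.55 ± 0.28 for Foxq1 and 0.46 ± 0.19 for Hpd, neither past the threshold.

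The genes with the smallest p in that test had little strain difference overnight and more at 3 days. Hsd11b1 differed by 0.17 ± 0.23 overnight and by 1.16 ± 0.23 at 3 days, where SS stood at 0.060 ± 0.59 (SD) and SS-13BN/Mcw at -1.10 ± 0.14. The contrast between the times was -0.98 ± 0.32 (limma adjusted p 0.972), and without SS 3-day pair 3 it was -1.32 ± 0.19 with an adjusted p of 0.0140, the only call of that contrast under any alternative run. Hsd11b2 ran the other way, with 0.11 ± 0.13 overnight, -0.43 ± 0.13 at 3 days and a contrast of 0.54 ± 0.18. Pdgfa, a growth factor for mesenchymal cells, had -0.027 ± 0.13 overnight and -0.68 ± 0.13 at 3 days. Gnrhr, the receptor of gonadotropin-releasing hormone, had -0.076 ± 0.14 and -0.65 ± 0.14. Tubb5, a beta tubulin, had -0.042 ± 0.12 and 0.50 ± 0.12, and Serpina3n had -0.088 ± 0.17 and 0.64 ± 0.18.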

How the data were processed

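Kidney RNA of rat pairs was measured on 2-colour cDNA arrays. The authors deposited 1 log ratio per probe and array (no log2, log10 or natural log base named); the sources used here give no base, numerator or earlier step. The 24 arrays form 4 groups of 3 rat pairs, and groups came from the array titles. The median of an array was subtracted from it, and dye-swapped arrays were averaged without turning signs. limma 3.58.1 (R 4.3.3, statmod 1.5.0) was fitted with 1 coefficient per group over all 12 pairs, eBayes, two-sided p-values adjusted by Benjamini-Hochberg over the tested probes, and a threshold of 0.05. They reflect how much rat pairs of a group vary. The script was tested on simulated data. Errors of differences are SEs of limma, and those of means are SDs.

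Of the tested probes 889 had 1 gene symbol (888 genes), 15 several and 149 none, and 886 were matched to the rat gene table by gene number. Outside the rule were 133 probes with enough pairs in 1 strain and 580 in neither. The members and the 24 gene lists were chosen with earlier results of these data known. Named genes were the 10 per direction with the smallest p and no overlap (since no probe passed), up to 3 per list by p, genes fixed by role, and 3 per direction for the contrast with 3 days. Other members named, such as Hpd, Lrp2, Sord, Aqp1, Tf, Gata6, Scaf1 and Rab26, were chosen after their values were seen.

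The lower-numbered rats recur at both times in the titles, and that rat as a random block had a correlation of 0.27. Pair numbers did not pair the strains: deviations of same-numbered pairs correlated at -0.226, -0.0870 and -0.0854. Figures used Python 3.11.15 and matplotlib 3.10.9.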

Additional observations from a re-analysis of the deposited data

How the results depend on the processing

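The count of called strain differences overnight was 0 in every setting run except the array-level fit with a dye term, added after seeing the data, which called 1. It was 0 with each overnight pair left out in turn. The number at an unadjusted p under 0.05 was 53 with all pairs, 27 without SS pair 1, 31 without SS pair 3 and 25 without SS-13BN/Mcw pair 3. List values without single pairs or without the proximal tubule genes were also added after seeing the data. The count for overnight against 3 days was 0, or 0 to 1 when a pair was left out (1 without SS 3-day pair 3). With the low-numbered rat as a replicate block both counts were 0 (53 and 47 at an unadjusted p under 0.05), and with the pair number as a block over the overnight pairs the first was 0 (38). The blocks changed no call. The difference in spread kept its sign and ran from -0.143 to -0.0209 with a pair left out.

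Of 1244 values of 72 genes under these settings, 1171 kept their direction, 73 did not and 0 passed the threshold. 32 genes never changed sign and 29 did so only with arrays turned by dye, which takes the difference of the swapped arrays in place of their mean. Turned by dye, the differences were Pros1 -0.14, Dpp4 -0.031, Mif -0.17, Akr7a3 -0.14, Glul -0.040, Oat -0.054, Echs1 -0.19, Akap9 0.050, Gss -0.062, Mme -0.036, Gpx4 -0.21, Agxt2 -0.14, Acsm2 -0.057, Hpd -0.085, Lrp2 -0.021, Safb 0.10, Acaa1a 0.11, Stmn1 -0.063, Nup54 0.054, Anpep -0.16, Gna15 0.16, Plat 0.11, Mt2A -0.038, S100a8 -0.093, Egr1 0.054, Hsd11b2 -0.083, Hsd11b1 -0.021, Gnrhr 0.057, Slc12a1 -0.059, Scnn1a -0.029, Timp1 -0.17, Nr3c2 0.073, Pdgfa 0.078, Fbp1 0.24, Ass1 -0.043 and Atp1b1 0.067. Scaled to a common spread they were Slc12a1 -0.017, Pdgfa 0.018, Fbp1 0.036, RT1-Db1 0.024 and Atp1b1 0.0094. After quantile normalization they were Slc12a1 -0.063, Pdgfa 0.020, Fbp1 0.014 and Atp1b1 0.017. With pair quality weights they were Serpina3n 0.12, Scnn1a -0.026, Tubb5 0.018, RT1-Ba 0.19, Fbp1 0.042 and RT1-Db1 0.21. Fbp1 was 0.0074 in the array-level fit and 0.020 with a dye term. With a pair left out Serpina3n ran from -0.22 to 0.082, Slc12a1 from -0.0050 to 0.10, Scnn1a from -0.0018 to 0.074, Tubb5 from -0.11 to 0.072, Timp1 from -0.046 to 0.18, RT1-Ba from -0.30 to 0.13, Nr3c2 from -0.14 to 0.098, Pdgfa from -0.073 to 0.035, Fbp1 from -0.092 to 0.073, RT1-Db1 from -0.28 to 0.15 and Atp1b1 from -0.10 to 0.085. The cause of these changes was not tested.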
